A study of Sus scrofa with 6 samples.

Results

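The genes described here build, cut and hold the extracellular matrix of the kidney. They are collagens, matrix proteases and their inhibitors, integrins, thrombospondins and single matrix proteins. Members were the probes whose gene name in the array files began with COL or MMP plus a digit, ADAM, TIMP (except TIMP2), LAMA, LAMB, LAMC, ITGA, ITGB or THBS plus a digit, or equalled 1 of 9 single names (LOX, FN1, SPARC, DCN, LUM, BGN, POSTN, TNC and MATN2). That gave 53 gene names of 36108 on the array, where unnamed transcripts stand under their accession, and 129 of its 43603 probes. No probe carried the name LOX, LUM, BGN or COL4A1 or a laminin name, and the member named ITGB1BP2 (melusin) is an integrin-binding protein, not an integrin chain.

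The animals were Large White pigs aged 3 months, and the tissue was renal cortex. In the control group, 3 kidneys were taken out, sampled and frozen at once. In the ischemia group, 3 kidneys were clamped, kept clamped for 60 min at 37 °C, flushed with cold University of Wisconsin preservation solution and held at 4 °C for 24 h before sampling. Each kidney came from a different pig, and the labels name no return of blood flow. Warm clamping, the flush and cold storage were applied together, so their parts cannot be told apart.

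The matrix of the kidney cortex has a dense sheet under the tubules, the glomerular capillaries and the endothelium, and a looser network between them. Network-forming type IV collagen and laminins make up the sheet, and fibrillar collagens with proteoglycans and glycoproteins make up the loose network. Cells bind both through paired integrin chains. Metalloproteinases of the MMP, ADAM and ADAMTS families cut matrix proteins and surface proteins, and TIMP proteins inhibit them. In the kidney the interstitial matrix is mainly laid down by fibroblasts and pericytes, and its build-up is the hallmark of chronic scarring.

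Every probe is a designed DNA oligonucleotide of 60 bases, and its sequence decides what is measured. A pair of probes is shown first because they carry higher values after ischemia, for the secreted protease ADAMTS1 and for a chain of type V collagen.
ADAMTS1 A_72_P181051: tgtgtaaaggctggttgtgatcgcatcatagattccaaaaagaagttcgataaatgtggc
COL5A3 A_72_P223917: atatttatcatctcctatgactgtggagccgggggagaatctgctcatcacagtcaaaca

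Another set of probes is shown because the member named COL1A2 and the probes described as collagen I alpha 2 gave different results. In the first, of which bases 12 to 41 are printed, capitals mark the stop triplets TAG, TAA and TAA, 1 in each reading frame. The second is open in 1 frame. In the last of these 3, capitals mark the complement of GGN, the glycine codon, every 9 bases, which is the spacing of glycine in a collagen triple helix, so the collagen repeat lies on the strand opposite to the one printed. The probe of COL17A1 has the same repeat on the printed strand, with GGN in capitals.
COL1A2 A_72_P192797: gatggatcatgcctTAGatTAAggaatTAA
COL1A2 by description A_72_P107881: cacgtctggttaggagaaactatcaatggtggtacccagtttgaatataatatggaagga
COL1A2 by description A_72_P053171: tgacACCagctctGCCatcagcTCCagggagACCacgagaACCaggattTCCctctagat
COL17A1 A_72_P185361: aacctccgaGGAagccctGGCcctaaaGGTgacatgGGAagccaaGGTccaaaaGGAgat

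The whole 60 bases of the member probe COL1A2 held a stop triplet (TAA, TAG or TGA) in every frame of both strands. It was 1 of 4 such probes among the 129 members (3.10%), against 5.95% of all probes. A run of at least 4 GGN triplets every 9 bases was found on the printed strand in 0.0688% of all probes and on the opposite strand in 0.0436%. These are descriptions of the letters only.

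Of the 129 member probes, 95 were well above background on all 6 arrays and 19 on none. The fit kept 105 of them, under 40 gene names, among the 25013 probes that were well above background on at least 3 arrays. The other 24 probes were not tested. They include every probe of MMP1, MMP3, MMP12, MMP17, MMP25, ADAM2, ADAM29, ADAM30, ADAM3A, COL10A1, ITGB6, ITGB1BP2 and TIMP-4. Levels below are log2 of the spot signal after division by the 75th percentile of its array, so that 0 is that percentile. Differences are ischemia minus control on this log2 scale, with the standard error (SE) of a limma fit over 3 arrays a group. Each p comes from that fit and each adjusted p from Benjamini-Hochberg adjustment over the 25013 probes.

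No member passed an adjusted p of 0.05 in either direction. The smallest adjusted p of a member was 0.382, for a MATN2 probe, and over the whole array 0 probes passed as higher (0%) and 1 as lower (0.004%). At an unadjusted p under 0.05, 12 of 105 member probes were higher (11.4%, against 2.99% of all tested probes) and 2 were lower (1.90%, against 3.31%). The 12 belonged to 6 gene names, and 6 of them were probes of MATN2. Without MATN2 the share was 6.06% of 99 probes. The other genes were ADAMTS1, COL5A1, COL5A2, COL5A3 and ADAM28, and the lower probes were named COL1A2 and COL8A1.

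All 3 ischemia values lay above all 3 control values in 20 member probes (19.0%, against 5.88% of all tested probes) of 10 gene names, and in 14.1% without MATN2. They lay below in 3 (2.86%, against 5%). A difference of at least 1 in either direction was seen in 13 member probes (12.4%, against 3.23%). Of the 13, 9 were probes of POSTN and MATN2, among them all 6 of POSTN, whose median difference fell to 0.46 without control 2. In all, 72 member probes had a difference above 0, or 68.6%, against 44.2% of the array, and their median difference was 0.12 against -0.04 for all tested probes. Every slide held 1 kidney of each group, and within the 3 slides the members' median difference was 0.11, 0.32 and 0.12. Many members are several probes of 1 gene, so these shares do not count independent genes. The members were also chosen with earlier results of these data known, so the shares are descriptions and not a test.

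**Figure D1:**
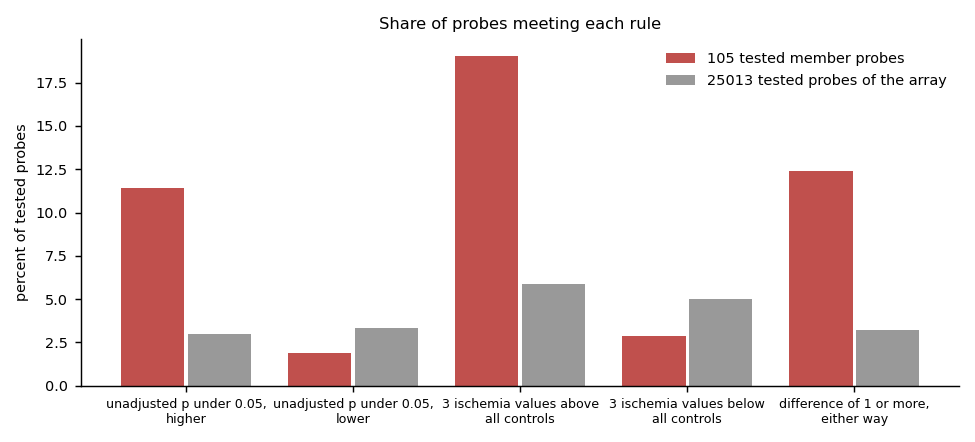
Share of tested probes, in percent, that meets each of 5 rules, for the 105 member probes (red) and all 25013 tested probes of the array (grey). The members lie at 11.4% against 2.99% for unadjusted p under 0.05 in the higher direction, and at 1.90% against 3.31% in the lower direction. Without the 6 probes of MATN2 the share in the higher direction is 6.06%.

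With slide as a block, 17 member probes were higher at an unadjusted p under 0.05 (16.2%, against 3.63% of all tested probes) and 3 were lower (2.86%, against 5.62%). Of the 17, 10 were in the class of single matrix genes, which holds 6 gene names, MATN2 and POSTN among them. The share without MATN2 is not given for this fit. Position on the slide cannot be told apart from group, since it was 4 for the controls and 3 for the ischemia kidneys. Scaling mattered for the direction. With each array centred on its median, the median of all probes was 0.11 and 83 of 105 member probes lay higher. The calls over the whole array at unadjusted p under 0.05 were then 961 higher and 494 lower, against 747 and 829. The members' median stayed above that of all probes under each of the 5 other scalings and background corrections, by 0.11 to 0.16.

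In bulk cortex, fewer cells of a type and less RNA per cell cannot be told apart. The tissue label was checked on proximal tubule genes, the bulk of the cortex, and GATM, ANPEP and MIOX were well above background on all 6 arrays with each of their tested probes. Cell type markers differed between the same arrays. Of all tested probes, 44.2% lay higher, and at unadjusted p under 0.05 2.99% were higher and 3.31% lower. Proximal tubule markers lay lower in 12 of 13 tested probes, 10 of them at unadjusted p under 0.05. Their summed level, in units of the 75th percentile, was 649 to 903 in control and 387 to 568 in ischemia arrays. Smooth muscle markers lay higher in 20 of 21 probes (9 at unadjusted p under 0.05), with sums of 268 to 304 and 320 to 382. Leukocyte markers lay higher in 9 of 11 probes (3 at unadjusted p under 0.05), with sums of 5.07 to 7.73 and 6.40 to 15.4. Endothelial markers lay higher in 7 of 10 (3 at unadjusted p under 0.05), with sums of 37.2 to 37.5 and 30.8 to 48.1. Of fibroblast and pericyte markers, all 3 tested probes lay higher and none passed unadjusted p under 0.05 (sums of 1.22 to 1.77 and 1.49 to 2.15), and THY1 was at background on every array. Podocyte probes lay higher in 2 of 2, loop and distal tubule probes in 2 of 3, collecting duct probes in 1 of 5 and adipocyte probes in 11 of 12. None of these passed unadjusted p under 0.05. Skeletal muscle probes lay higher in 10 of 27 (23 with median centring), and at unadjusted p under 0.05 there were 3 higher and 1 lower. These probes were of few genes, so their counts are not counts of independent markers. The tested genes numbered 4 each for proximal tubule, smooth muscle, endothelium and adipocyte, and 5 each for leukocyte and skeletal muscle. They numbered 3 for collecting duct, 2 each for loop and distal tubule and for fibroblast and pericyte, and 1 for podocyte. The part of any of these cell types in the matrix values was not tested.

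**Figure D2:**
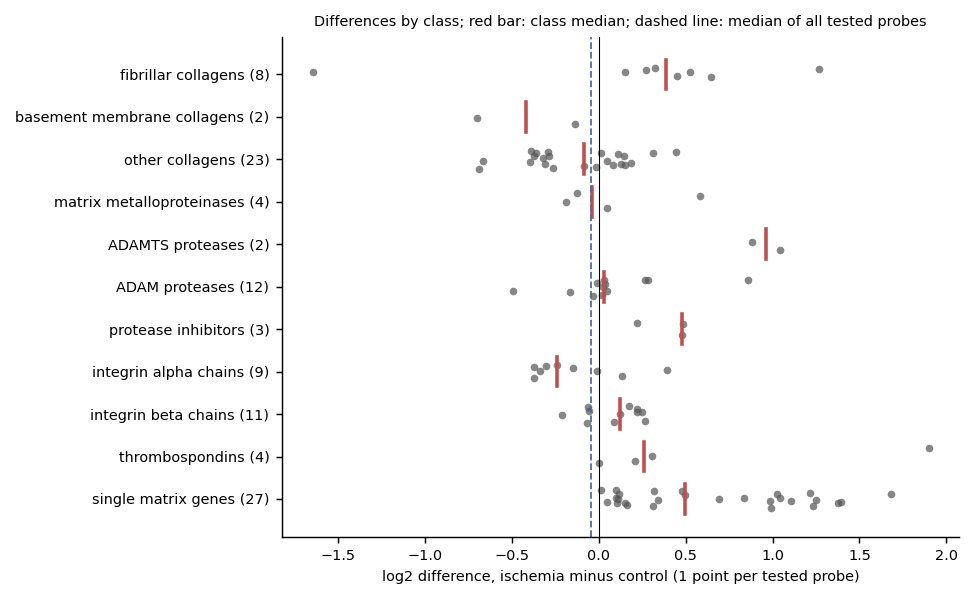
Log2 difference (ischemia minus control, x axis) of each tested member probe, by class (y axis, number of tested probes in brackets), with the class median as a red bar and the median of all tested probes, -0.04, as a dashed line. All 27 probes of the single matrix genes lie above 0 (26 with quantile normalization or normexp, 18 without control 3 and 23 without ischemia 2), while 7 of the 9 integrin alpha probes lie below it (5 with median centring).

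Fibrillar collagens form the tensile fibrils of the interstitium, and type V collagen sits inside type I fibrils and sets their diameter. Of 8 tested probes, 7 lay higher (6 with normexp background correction and the 75th percentile), with a median difference of 0.39. COL5A3 measured -3.32, -3.26 and -3.22 on the controls and -1.73, -1.70 and -2.56 on the ischemia arrays. All 3 ischemia arrays were above all controls, and ischemia 3 was the lowest of them. The difference was 1.27 ± 0.27 (SE), a fold of 2.41, with unadjusted p = 0.00215 and a limma adjusted p of 0.476. This probe is dim, and with normexp background correction the difference was 0.41 or 0.54 and it was 0.75 in the authors' deposited table.

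COL5A1 on its tested probe A_72_P495841 measured -2.55, -2.86 and -2.87 on the controls and -2.13, -1.98 and -2.24 after ischemia, again without overlap. Its difference was 0.65 ± 0.20 (unadjusted p = 0.0129, limma adjusted p = 0.659), and 0.23 or 0.35 with normexp. The other tested probe of COL5A1 differed by 0.27 and overlapped, and the last, A_72_P444639, was at background on every array. The alpha 2 chain, COL5A2, lay higher on all 4 of its probes (3 with normexp and the 75th percentile), with differences of 0.15 to 0.53, and 3 of them did not overlap. Probe A_72_P591869 of COL5A2 had -0.35, -0.69 and -0.55 in controls and -0.09, -0.02 and 0.10 in ischemia. It differed by 0.53 ± 0.19 (unadjusted p = 0.0275, limma adjusted p = 0.745).

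The member named COL1A2 was the exception in its class. Its levels were -2.35, -1.78 and -1.43 on the controls and -3.90, -3.24 and -3.35 after ischemia. Every ischemia array was below every control, with ischemia 1 the lowest. The difference was -1.64 ± 0.30, or 3.12-fold lower, with unadjusted p = 0.000915 and limma adjusted p = 0.385. It was -0.73 or -0.57 with normexp and -0.71 in the authors' deposited table. The array design describes this probe only as a clone expressed in ovary.

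The 2 probes that the design describes as collagen I alpha 2, but does not name so, gave values on the other side of 0, although 1 of them turned to -0.10 with normexp and the 75th percentile, to -0.17 without control 1, and the other to -0.09 without ischemia 2. They were chosen after values had been seen. Probe A_72_P107881 measured 2.50, 2.37 and 2.17 on the controls and 2.52, 2.89 and 2.01 after ischemia. Its difference was 0.13 ± 0.27 (unadjusted p = 0.653), and the groups overlapped. Probe A_72_P053171, with the collagen repeat on the opposite strand, was dim (well above background on 2 of 3 controls), differed by 0.16 ± 0.35 and also overlapped. The longest run of bases that the member probe shared with either of them was 5 on the same strand and 6 on the opposite strand. Probes for different parts of 1 transcript need not share bases, so these runs cannot decide the name. Which transcript the member probe measures was not tested, so its lower value is given here for the probe and not for type I collagen. Whether A_72_P053171 measures the COL1A2 transcript was not tested either. COL1A1, the partner chain in type I collagen, was reached by description on 1 probe and differed by -0.20 ± 0.36.

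**Figure D3:**
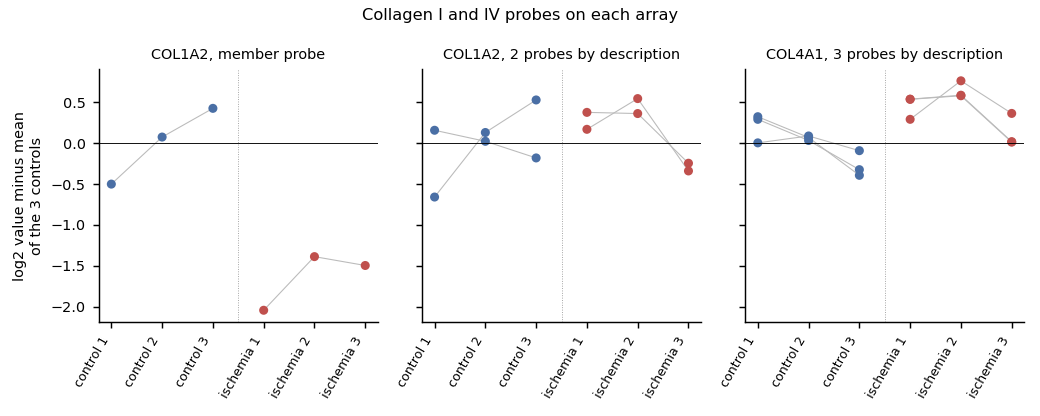
Log2 value minus the mean of the 3 controls (y axis) on each of the 6 arrays (x axis), for the member probe named COL1A2, the 2 probes described as collagen I alpha 2 and the 3 probes described as COL4A1; thin lines join the values of 1 probe within a group. The member probe is lower on all 3 ischemia arrays, with a difference of -1.64, while the described COL1A2 probes differ by 0.13 and 0.16. The 0.16 is from the dim probe A_72_P053171, which has the collagen repeat on the strand opposite to the one printed.

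Basement membrane collagen was represented by a pair of alpha chains of type IV collagen. COL4A3, the chain of the glomerular filter that is the Goodpasture antigen, measured -1.55, -1.30 and -1.34 on the controls and -2.64, -2.22 and -1.42 after ischemia. All 3 ischemia values were below the mean of the controls, and ischemia 3 overlapped with them. The difference was -0.70 ± 0.32 (unadjusted p = 0.0658, and 0.0440 with slide as a block), or -0.42 without ischemia 1. COL4A6 had -2.82, -2.45 and -2.25 in controls against -2.31, -2.92 and -2.70 after ischemia, a difference of -0.14 ± 0.25 with overlap.

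COL4A1, the ubiquitous chain of type IV collagen, had 3 probes by description with differences of 0.38 to 0.47, or 0.18 to 0.43 without control 3. Of these, A_72_P598118 and A_72_P315543 have the same bases. Both overlapped between the groups and differed by -0.02 and -0.05 within slide 2. Probe A_72_P527792 measured 3.92, 4.01 and 3.83 on the controls and 4.21, 4.68 and 4.28 after ischemia, without overlap (difference 0.47 ± 0.21, unadjusted p = 0.0552). COL4A2, its partner in the same trimer, had 1 described probe above background on all arrays. On this probe, A_72_P316003, the controls were 0.57, 0.68 and 0.58 and the ischemia arrays 0.24, 0.20 and 0.19 (difference -0.40 ± 0.17, unadjusted p = 0.0535). These groups did not overlap either, and the difference was -0.41 to -0.12 over the 5 other scalings and background corrections. The second COL4A2 probe, A_72_P305299, was well above background on 3 controls but on only 1 ischemia array, so no direction is read from it. COL4A5 differed by 0.40 ± 0.28 on 1 described probe, or by 0.11 without control 3.

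Laminins, the other main polymer of the basement membrane, were reached by description alone. LAMA4, a chain of vessel walls, had -0.40, -0.69 and -0.69 in controls and 0.08, 0.16 and 0.07 after ischemia. The groups did not overlap, and the difference was 0.70 ± 0.19 (unadjusted p = 0.00710, limma adjusted p = 0.596). LAMB3 measured -2.14, -1.93 and -2.32 on the controls and -1.61, -1.58 and 0.00 after ischemia, with ischemia 3 far above the others (difference 1.06 ± 0.44, unadjusted p = 0.0448, limma adjusted p = 0.778, and 0.53 without ischemia 3). The remaining laminin differences were -0.08 (LAMA5), -0.33 to 0.15 over 3 probes (LAMB1), 0.38 (LAMB2), -0.05 and -0.04 (LAMC1) and 0.27 (LAMC3). The 0.38 of LAMB2 was 0.06 without ischemia 3 and 0.10 without control 3, and the 0.27 of LAMC3 was 0.05 without control 3.

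The remaining collagens had 23 tested probes, 10 higher and 13 lower, with a median difference of -0.08 that turned to 0.07 with median centring, 0.03 with quantile normalization and 0.15 in the authors' deposited table. COL8A1, a network collagen of vessel walls, had -3.30, -2.52 and -2.87 in controls and -3.87, -3.63 and -3.26 after ischemia on probe A_72_P502819. Ischemia 3 lay within the controls' range, and the difference was -0.69 ± 0.27 (unadjusted p = 0.0388, limma adjusted p = 0.765). It was -0.37 or -0.22 with normexp. A second tested probe of COL8A1 differed by -0.31. The other COL8A1 probes were not tested, since A_72_P414108 was above background on 1 control and 0 ischemia arrays and A_72_P016281 on 1 of each, and no fold is given for them.

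COL14A1, a collagen that binds to fibril surfaces, had 11 tested probes, 8 of them lower. Ischemia 1 was the lowest array on all 11. Probe A_72_P673391 measured 0.36, 0.98 and 0.88 on the controls and -0.65, 0.36 and 0.51 after ischemia (difference -0.66 ± 0.35). Probe A_72_P691868 had -0.89, -1.12 and -0.94 against -1.58, -1.10 and -1.23 (difference -0.32 ± 0.21). The median over the 11 probes was -0.29, and without ischemia 1 it was 0.04 with 6 of 11 probes higher. Several of these probes overlap in sequence and are not independent.

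Type VI collagen forms beaded filaments around cells. COL6A3 on probe A_72_P071341 had -0.26, -0.21 and -0.87 in controls and -1.08, -0.50 and -0.95 after ischemia (difference -0.40 ± 0.27), whereas its other 4 tested probes differed by 0.05 to 0.19. COL6A1 differed by -0.02 and COL6A2 by 0.31 and -0.08 on 2 probes of identical sequence. COL12A1 differed by 0.45 ± 0.36 on a dim probe that was well above background on 2 of 3 controls. Its difference was 0.04 with normexp and the 75th percentile, 0.15 without ischemia 3 and 0.20 without control 1. COL17A1, the probe shown above, differed by 0.01.

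Among matrix metalloproteinases, 4 of 11 probes were tested, and none passed unadjusted p under 0.05. MMP14, a membrane-bound collagenase that activates other proteases, measured 2.93, 2.80 and 2.66 on the controls and 3.14, 3.13 and 3.87 after ischemia. The groups did not overlap, ischemia 3 was the highest, and the difference was 0.58 ± 0.26 (unadjusted p = 0.0572, limma adjusted p = 0.818), or 0.34 without ischemia 3. MMP7, matrilysin, an epithelial protease, had 0.41, 0.37 and 0.98 in controls and -1.10, 2.19 and 0.81 after ischemia. Its lowest and its highest array were both ischemia arrays, and the difference was 0.05 ± 0.75. MMP9, a gelatinase, had 2.98, 2.52 and 2.67 against 3.12, 2.17 and 2.31 (difference -0.19 ± 0.30). MMP16, dim on most arrays, had -4.54, -3.91 and -3.88 against -4.17, -4.26 and -4.26 (difference -0.12 ± 0.24).

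ADAMTS1 is a secreted protease that cuts proteoglycans such as aggrecan and versican, and it was higher on both of its probes. Probe A_72_P261392 measured 0.67, 0.73 and 1.08 on the controls and 1.92, 1.86 and 1.84 after ischemia. The 3 ischemia arrays lay close together and above every control. The difference was 1.05 ± 0.20, a fold of 2.06 (unadjusted p = 0.00103, limma adjusted p = 0.385). Probe A_72_P181051, printed above, had -0.32, -0.58 and 0.02 in controls and 0.66, 0.74 and 0.38 after ischemia. It did not overlap either and differed by 0.88 ± 0.23 (unadjusted p = 0.00602, limma adjusted p = 0.592). Within slides, ADAMTS1 differed by 1.19, 1.11 and 0.84 on the first probe and by 1.05, 0.96 and 0.63 on the second.

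The ADAM family sheds cell surface proteins, and its 12 tested probes had a median difference of 0.03, which turned to -0.01 with normexp and the 75th percentile. ADAM28, known in lymphocytes and epithelia, measured -3.79, -3.41 and -3.59 on the controls and -2.83, -3.09 and -2.29 after ischemia. The groups did not overlap, but the probe was well above background on only 2 of 3 controls. The difference was 0.86 ± 0.26 (unadjusted p = 0.0124, limma adjusted p = 0.659) and was 0.19 or 0.33 with normexp. The second ADAM28 probe was at background on every array.

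ADAM8, a leukocyte protease, had -1.77, -3.06 and -2.29 in controls and -3.91, -2.80 and -1.88 after ischemia (difference -0.49 ± 0.55). ADAM15 on the pair of identical probes had 0.57, -0.05 and -0.37 in controls and 0.45, 0.24 and 0.31 after ischemia on the first, and 0.55, -0.06 and -0.37 against 0.38, 0.24 and 0.30 on the second. The groups overlapped on both, and the differences were 0.28 and 0.27. The sheddases ADAM10 (0.03), ADAM17 (-0.03 to 0.05 over 4 probes) and ADAM-9 (-0.16 and 0.02) had differences within 1 standard error of 0.

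TIMP1, an inhibitor of most metalloproteinases, lay higher on all 3 probes. Probe A_72_P223927 of TIMP1 measured -0.35, -0.84 and -0.90 on the controls and -0.21, -0.11 and -0.32 after ischemia. These groups did not overlap, and the difference was 0.48 ± 0.22 (unadjusted p = 0.0621, limma adjusted p = 0.833). On A_72_P444809, which shares 56 bases with it, the values were -0.01, -0.56 and -0.64 against 0.01, 0.29 and -0.09. Control 1 was the highest control on both of these probes and lay within the ischemia range on the second. The remaining TIMP1 probe had 3.41, 3.11 and 2.93 against 3.48, 3.41 and 3.21 (difference 0.22 ± 0.21).

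**Figure D4:**
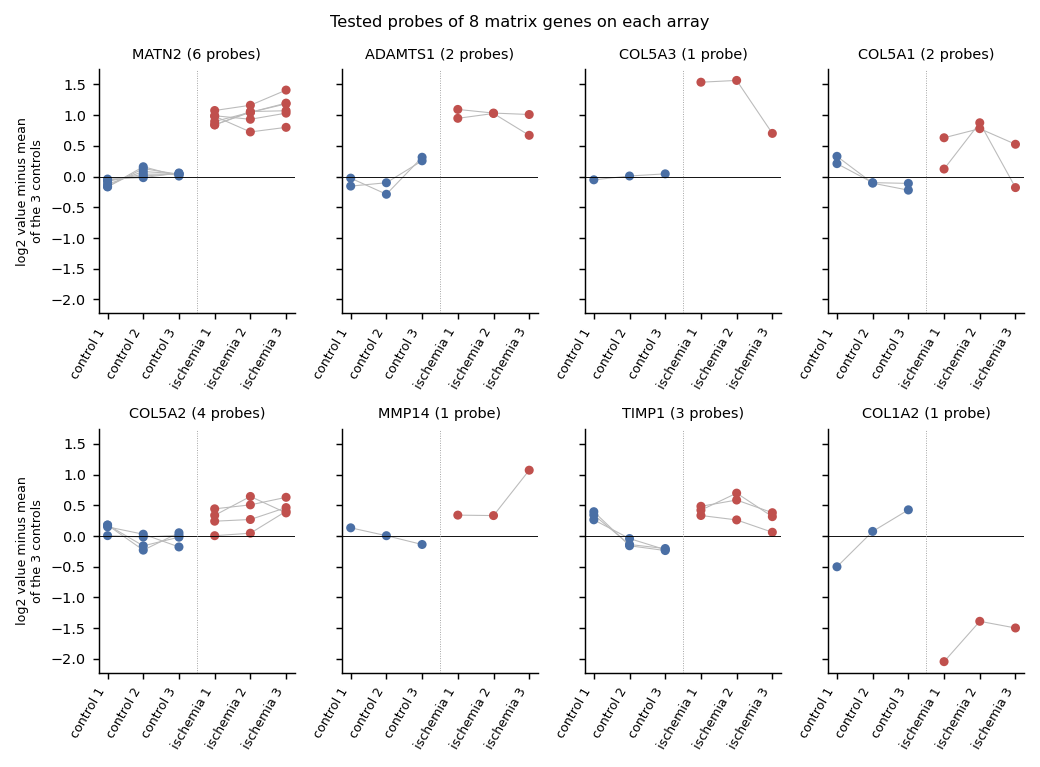
Log2 value minus the mean of the 3 controls (y axis) on each of the 6 arrays (x axis; controls blue, ischemia red) for the tested probes of 8 genes; thin lines join the values of 1 probe within a group, and the arrays of a group have no order. All 6 MATN2 probes and both ADAMTS1 probes lie above every control on all 3 ischemia arrays, and the probe named COL1A2 lies below.

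MATN2, matrilin-2, is an adaptor protein that links collagen fibres and other matrix networks, and it contributed more probes at unadjusted p under 0.05 than any other member gene. All 6 of its probes lay higher without overlap, by 0.84 to 1.21. Probe A_72_P415073 of MATN2 had 0.44, 0.77 and 0.61 in controls and 1.68, 1.77 and 2.01 after ischemia. The difference was 1.21 ± 0.20, a fold of 2.32 (unadjusted p = 0.000446, limma adjusted p = 0.382). On A_72_P473646 the values were -0.42, -0.35 and -0.31 against 0.63, 0.57 and 0.67 (difference 0.98 ± 0.17). On A_72_P499873 they were 0.81, 1.02 and 0.98 against 1.83, 1.98 and 2.12 (difference 1.04 ± 0.19). On A_72_P668429 they were -0.48, -0.36 and -0.36 against 0.44, 0.65 and 0.67 (difference 0.99 ± 0.18). In each case the gap between the groups was wider than the range within either.

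The remaining MATN2 probes, A_72_P605923 and A_72_P603353, differed by 1.03 ± 0.20 and 0.84 ± 0.18. The limma adjusted p of the 6 probes was 0.382 to 0.482. Probes A_72_P499873 and A_72_P415073 share 57 of 60 bases, and A_72_P605923 shares 15 bases with the latter. When 1 array at a time was left out, the differences of MATN2 kept between 0.76 and 1.29.

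Periostin (POSTN), a matricellular protein made by activated fibroblasts, lay higher on all 6 probes, by 1.10 to 1.68, but the difference turned on 1 array. Probe A_72_P618531 measured -1.01, -3.40 and -1.15 on the controls and 0.30, -0.72 and -0.96 after ischemia. Control 2 was far below the other controls on all 6 probes, and ischemia 1 was the highest array on all 6. On 4 of these POSTN probes only 2 of 3 controls were well above background. The difference was 1.39 ± 0.67 (unadjusted p = 0.0742, limma adjusted p = 0.850). With slide as a block the unadjusted p of the 6 probes was 0.0136 to 0.0858. Without control 2 the median over the 6 probes was 0.46, against 1.32 with all arrays, and with normexp and the 75th percentile it was 0.68.

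Decorin (DCN), a small proteoglycan on collagen fibrils, had 5 probes that all lay higher, by 0.05 to 0.69 (4 of 5 without control 3, ischemia 2 or ischemia 3), and ischemia 3 was the highest of the ischemia arrays on each. Probe A_72_P569714 measured 1.03, 0.77 and 0.80 on the controls and 0.91, 1.55 and 2.20 after ischemia (difference 0.69 ± 0.33, unadjusted p = 0.0741). On A_72_P596994 the values were 4.78, 4.52 and 4.46 against 4.63, 4.89 and 5.18 (difference 0.31 ± 0.22). The groups overlapped on all 5 probes, since ischemia 1 stayed within the controls' range or below it.

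SPARC (osteonectin), a collagen-binding glycoprotein, differed by 0.02 to 0.16 over 7 probes, all above 0, but this direction turned on single arrays. Without control 3, 0 of the 7 probes of SPARC lay higher, with a median of -0.082, and without ischemia 2 only 4 did. With quantile normalization 1 probe also turned to -0.01, and to -0.05 with normexp and quantile. Probe A_72_P444699 had 5.16, 4.40 and 4.21 in controls and 4.62, 4.98 and 4.50 after ischemia. Control 1 was the highest array on all 7 probes, and the groups overlapped on each.

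Fibronectin (FN1) had 1.50, 1.42 and 2.49 against 1.69, 2.28 and 2.46, a difference of 0.34 ± 0.35 that was 0.15 without control 2 and 0.68 without control 3. Tenascin C (TNC), a glycoprotein of injured tissue, had -1.69, -2.02 and -2.91 against -2.10, -1.85 and -1.18 on A_72_P035426 (difference 0.50 ± 0.38) and differed by 0.10 ± 0.49 on a dimmer probe. The 0.50 of TNC was 0.14 without control 3 and 0.23 without ischemia 3, and the median over both probes then turned to -0.034 and -0.066. Both genes overlapped between the groups.

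LOX, the enzyme that cross-links collagen, was reached by description on 1 probe. Its values were 0.65, 0.96 and 0.61 on the controls and 1.14, 1.43 and 1.99 after ischemia, without overlap (difference 0.78 ± 0.27, unadjusted p = 0.0217, limma adjusted p = 0.723). Lumican (LUM) lay lower on all 8 described probes, with differences of -0.23 to -0.13 and with overlap, although 1 turned to 0.02 with median centring, and 1 lay higher without control 2 or ischemia 2, 3 without control 3 and 4 without ischemia 1. Biglycan (BGN) differed by -0.11 on 1 probe, which lay above 0 without control 1, control 2 or ischemia 3 and turned to between 0.02 and 0.12 with median centring, with either quantile normalization and in the authors' deposited table.

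Integrin alpha chains pair with beta chains as receptors for matrix. Of 9 tested alpha probes, 7 lay lower, with a median difference of -0.24 that was -0.09 with 5 lower probes under median centring and 0.10 over the 3 probes in the authors' deposited table. ITGAV, the alpha chain of receptors for vitronectin and latent TGF-beta, was lower on all 5 probes, with differences of -0.37 to -0.15, although 1 probe turned to 0.00 with median centring. Probe A_72_P165441 of ITGAV had 3.75, 3.71 and 3.68 in controls and 3.31, 3.27 and 3.55 after ischemia, without overlap (difference -0.34 ± 0.18, unadjusted p = 0.110). On A_72_P471875 the values were -1.20, -1.34 and -1.44 against -2.08, -1.46 and -1.54, again without overlap (difference -0.37 ± 0.23).

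The other ITGAV probes overlapped. A_72_P560719 had 2.84, 2.44 and 2.05 against 2.27, 1.95 and 1.99, and A_72_P696261 had 2.48, 2.43 and 2.05 against 2.22, 1.72 and 2.11. ITGA5, the alpha chain of the fibronectin receptor, differed by 0.39, on a probe well above background on 1 control and 2 ischemia arrays, and 0.14, and ITGAL, a leukocyte chain, by -0.24 and -0.01.

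ITGB1 is the common partner of the collagen, laminin and fibronectin receptors. It lay higher on 5 of 6 probes (6 of 6 with median centring or without ischemia 1), by 0.17 to 0.27, and lower by 0.07 on A_72_P195557. Probe A_72_P682292 measured 4.62, 4.63 and 4.69 on the controls and 4.78, 4.97 and 4.98 after ischemia, without overlap (difference 0.27 ± 0.18, unadjusted p = 0.180). On A_72_P652927 the values were 4.23, 4.18 and 3.90 against 4.14, 4.45 and 4.48, with overlap.

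Values of ITGB1 were similar on the other probes. A_72_P639944 had 2.73, 2.69 and 2.69 against 2.75, 3.00 and 3.01, and A_72_P223772 had 4.84, 4.86 and 4.64 against 4.79, 5.09 and 5.13. On all 4 of these ITGB1 probes ischemia 1 was the lowest ischemia array. ITGB2, the leukocyte beta chain, differed by 0.12, and ITGB8, the chain that pairs with ITGAV, by -0.06 and -0.06. The probes named ITGB3, the platelet and vitronectin receptor chain, lay at very different levels. A_72_P762355 had a control mean of 10.3 and differed by -0.21, and A_72_P223672 had a control mean of -1.32 and differed by 0.09. Which transcript the brighter one measures was not tested, so its value is given for the probe only. No integrin probe passed unadjusted p under 0.05.

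Thrombospondins are secreted adhesion modulators. THBS3 was the gene whose tested probes disagreed by more than 1 in their difference. The probe of the larger difference is printed because its values lay far apart on the 3 ischemia arrays.
THBS3 A_72_P570940: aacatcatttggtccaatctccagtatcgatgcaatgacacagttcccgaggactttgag

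It measured -3.53, -3.67 and -2.68 on the controls and 0.25, -1.16 and -3.27 after ischemia. Ischemia 1 was the highest and ischemia 3 lay among the controls. The difference was 1.90 ± 0.81 (unadjusted p = 0.0512, limma adjusted p = 0.798). With slide as a block the unadjusted p was 0.00731 and the limma adjusted p 0.349. It was 1.06 or 1.15 with normexp and 0.89 in the authors' deposited table. The other THBS3 probe, A_72_P474821, had -2.24, -2.32 and -2.06 against -1.95, -2.14 and -1.61, a difference of 0.31 ± 0.21. THBS1, which can activate latent TGF-beta, had 2.47, 2.74 and 2.34 against 2.29, 2.71 and 3.17 on A_72_P040756 (difference 0.21 ± 0.27) and 1.52, 1.42 and 1.30 against 1.49, 1.51 and 1.26 on A_72_P151688 (difference 0.00 ± 0.19).

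**Figure D5:**
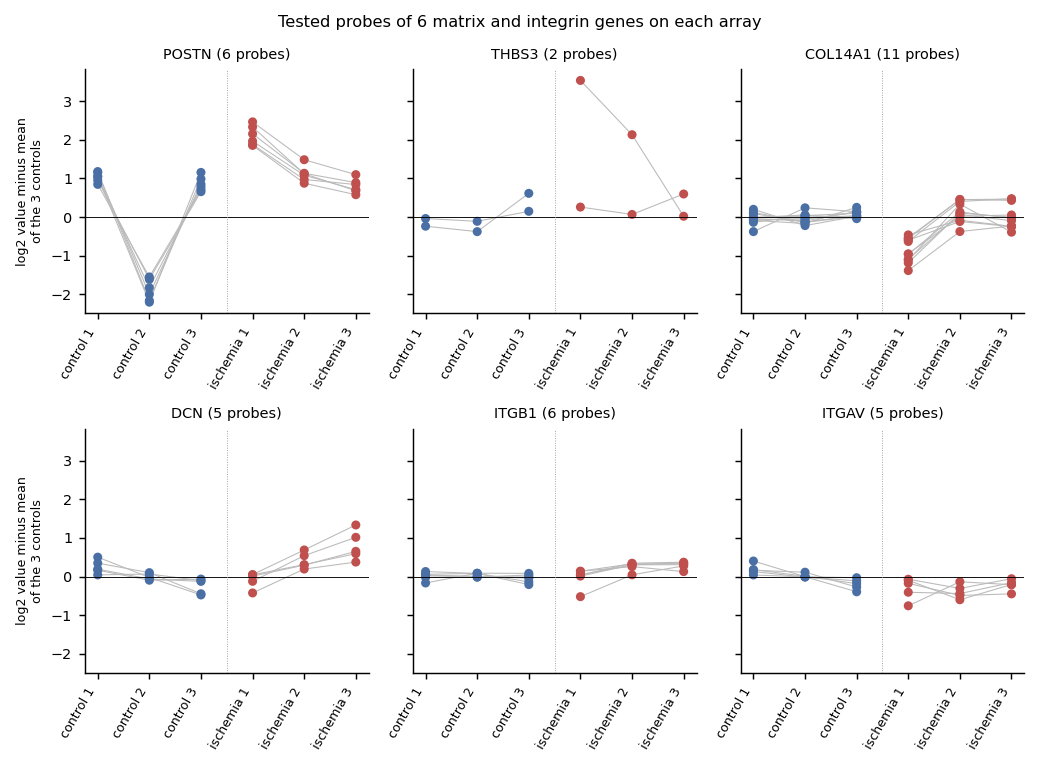
Log2 value minus the mean of the 3 controls (y axis) on each of the 6 arrays (x axis; controls blue, ischemia red) for the tested probes of POSTN, THBS3, COL14A1, DCN, ITGB1 and ITGAV; thin lines join the values of 1 probe within a group. Control 2 is low on all 6 POSTN probes, ischemia 1 is lowest on all 11 COL14A1 probes, and 1 THBS3 probe lies 3.54, 2.13 and 0.02 above the control mean on ischemia 1, 2 and 3.

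Probes of 1 gene could be set against each other as a check on the names. Of 24 member genes with more than 1 tested probe, 17 had all probes on one side of 0 and 7 had probes on both sides. There were 4 pairs of member probes with identical bases, and their differences were 0.28 and 0.27 (ADAM15), 0.31 and -0.08 (COL6A2, dim), 0.19 and 0.14 (COL6A3) and 0.12 and 0.10 (SPARC). At least 15 bases were shared in 20 pairs, which took in 33 probes. The median GC content of member probes was 43.3%, against 41.7% for all probes.

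Beyond the members, 4 lists of other matrix genes (collagen processing, glycoproteins and proteoglycans, matrix receptors and protease regulators, focal adhesion) had 80 tested probes of 22 genes. Of these, 55 lay higher (68.8%, against 44.2% of all tested probes) and 25 lower, with a median of 0.14. Within the 3 slides the median was -0.03, 0.13 and 0.19. At unadjusted p under 0.05, 2.99% of all tested probes were higher and 3.31% lower. The 80 probes held 1 such probe in each direction, a smaller share both ways. They were FBN1, the microfibril protein fibrillin-1 (0.57 ± 0.19, unadjusted p = 0.0213, limma adjusted p = 0.721), and DDR2, a collagen receptor kinase (-0.58 ± 0.22, unadjusted p = 0.0316, limma adjusted p = 0.751). Next by p were the focal adhesion protein VCL (0.30 ± 0.18) and the SPARC relative SPARCL1 (0.61 ± 0.40) among higher probes, and the procollagen protease BMP1 (-0.37 ± 0.27) and vitronectin, VTN (-0.71 ± 0.57), among lower ones.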

How the data were processed

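Total RNA of renal cortex was labelled with Cy3 and hybridised to 6 one-colour arrays. The deposited scanner files hold spot intensity, background-subtracted and detrended within each array by Agilent Feature Extraction 10.10.1.1 per the file headers (11.5.1.1 per the submitters' processing notes). The authors' deposited table is on the log2 scale, with column medians of 5.91 to 5.99. The sources used here do not give its scaling between arrays, so it served as an alternative.

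Control spots and 5 to 12 outlier spots an array were left out, replicate spots were averaged, and log2 of the processed signal was set relative to the 75th percentile of its array. No spot was saturated, 52.6% to 61.4% were well above background, and correlations between arrays were 0.960 to 0.983. Probes well above background on at least 3 arrays, with values on at least 5, were tested with limma 3.58.1 (lmFit, eBayes, two-sided) in R 4.3.3. The number of arrays limits precision. An exact permutation test of 3 against 3 cannot go below 0.1, so none was run. The fit was tested on simulated data with independent noise on each array and no slide effect, so that run does not cover effects of slide.

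Same-numbered samples did not deviate together (correlations of -0.348, -0.168 and -0.0496). Arrays of 1 slide did (0.334, 0.342 and 0.102). Members, lists, marker genes and the rule for named genes were chosen with earlier results of these data known. By that rule every member gene is named, and values on each array are given for 10 genes, for up to 4 probes of smallest p in each class, and for genes whose probes differ by over 1. Finding further probes by description and leaving out MATN2 were added after values had been seen. Alternatives covered scaling, background correction, the deposited table, filters, blocks, variance models, single arrays left out and 1 value a gene.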

Additional observations from a re-analysis of the deposited data

How the results depend on the processing

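No member probe passed an adjusted p of 0.05 under any alternative run, and the smallest was 0.0689, with array weights. The 12 member probes higher at unadjusted p under 0.05 became 25 with array weights (23.8%, when the share of all probes was 7.12%). They became 14 of 42 with the deposited values (33.3%, against 12.4%) and 6 without MATN2 (6.06%, against 2.99%). With 1 mean value a gene they were 5 of 40 genes (12.5%, against 2.53%). The 2 lower ones became 1 with median centring, quantile normalization, normexp with the 75th percentile and the variance trend (0.952%, against 1.97% to 3.41%). They became 1 with the deposited values (2.38%, against 1.23%) and with 1 mean value a gene (2.5%, against 3.59%). There were 4 with no filter on dim probes (3.10%, against 2.94%) and 6 with array weights (5.71%, against 9.83%). The replicate block pairs samples by number, although the numbers do not pair the animals. With it 14 were higher (13.3%, against 2.15%) and 3 lower (2.86%, against 2.71%). Of probes whose groups did not overlap, 6 genes lay above with 1 mean value a gene, and below there was 1 with the deposited values and 7 with no filter. For overlap counts under an alternative, left-out arrays included, the share of all probes was not computed. These counts are therefore not set against the array. The median difference of 0.12 was 0.27 with median centring, 0.30 with the deposited values and 0.32 within slide 2. Leaving out 1 array at a time gave 10 to 19 higher probes (9.52% to 18.1%, against 1.46% to 4.16% of all tested probes), with the most without control 1. Lower ones then numbered 1 to 3 (0.952% to 2.86%, against 1.73% to 8.77%), with 1 without control 2 or ischemia 1. Leaving out 1 array also gave 20 to 35 probes above, with 35 without control 1 or ischemia 1, and 5 to 10 below. Medians ran from 0.058 without ischemia 2 to 0.23 without ischemia 1. With fewer arrays groups overlap less by construction. The SPARC probe A_72_P444699 ranged from -0.081 without control 3 to 0.39 without control 1, and was -0.03 without ischemia 2. Other causes of these shifts were not tested. On dim probes such as those of COL5A3 and ADAM28 the differences were smaller with normexp, and the reason was not tested.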
